A study of Homo sapiens with 24 samples.

Results

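The genes described are 10 that the liver uses to turn ammonia into urea and to draw nitrogen from glutamine and histidine: CPS1, OTC, ASS1, ASL, ARG1, NAGS, SLC25A15, SLC25A13, GLS2 and HAL. They were found by symbol, through the RefSeq transcript that the scanner files give for each probe. This gave 13 probes among 50683 for the 10 genes among 20503, with several probes for ASS1, ARG1 and SLC25A15. A total of 10 of these 13 probes, for 8 of the genes, stood well above background in every replicate of some condition and were tested. ARG1 and HAL did not reach that level and are given by their intensities alone. OTC reached it through the untransfected arrays only, the condition where it was brightest, so that a difference from that condition was built into its being tested.

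Expression was read on 24 one-colour Agilent arrays of HepaRG cells, a human bipotent liver progenitor line labelled as a hepatocellular carcinoma cell line. Independent cultures were compared in triplicate in 8 conditions: no transfection, a control siRNA, an siRNA against CTNNB1 (the beta-catenin gene), or FZD8_CRD, each without or with Wnt3a. Wnt3a (200 ng/ml) and FZD8_CRD (300 ng/ml) were mouse recombinant proteins, each siRNA was given at 80 pmol, and treatment lasted 72 h. FZD8_CRD is the soluble Wnt-binding domain of a Frizzled receptor, and the cells given it were not transfected. Between 58.3 and 66.5% of the spots of an array were well above background, and the number of arrays limits the precision.

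Urea is made in hepatocytes from ammonia, bicarbonate and aspartate, in steps split between the mitochondrion and the cytosol. In the liver lobule these enzymes, and the glutaminase that feeds them, are richest around the portal vein, while glutamine synthetase is confined to the cells around the central vein. Wnt signaling through beta-catenin is known to favour the central pattern in mouse liver.

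Some arrays stood apart from the others of their condition. By the mean absolute log2 difference over all tested genes, 19 of the 24 arrays lay nearest the mean of their own condition (its other arrays) and 5 lay nearer another. Untransfected replicate 3 lay nearer the untransfected arrays with Wnt3a (0.24 against 0.30 to its own), and replicate 3 with Wnt3a lay nearer those without (0.26 against 0.34). Untransfected replicate 2 with Wnt3a lay nearer control siRNA with Wnt3a (0.24 against 0.33), and CTNNB1 siRNA replicate 3 with Wnt3a nearer CTNNB1 siRNA without it (0.23 against 0.26). FZD8_CRD replicate 3 lay nearer FZD8_CRD with Wnt3a (0.19 against 0.35), with 1238 genes more than 1 log2 unit from the other arrays of its condition. The labels were used as given. Each slide held 1 array of every condition and the slide number is the replicate number, so that differences within a slide can be read beside the group means.

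The targeted gene, CTNNB1, read 3.35, 3.39 and 3.52 with control siRNA and 0.26, 0.36 and 0.52 with its own siRNA (log2 of the signal over the 75th percentile of its array, replicates 1 to 3). With Wnt3a the readings were 3.39, 3.62 and 3.70 and 0.34, 0.53 and 0.79. No array with the CTNNB1 siRNA overlapped an array with the control siRNA, and the log2 changes were -3.04 without and -3.02 with Wnt3a. AXIN2, a feedback target of Wnt signaling, changed by 0.37 with Wnt3a in untransfected cells (adjusted p 0.041) but by -0.03 when arrays were scaled to the spike-in probes, and by 0.60 with control siRNA (adjusted p 0.00632). In untransfected cells that scaling lowers the Wnt3a change of every gene alike, RNF43 included, with the median of all genes at -0.37 (before it 0.02). RNF43, another such target, rose with Wnt3a in untransfected cells (0.74, adjusted p 0.00061), with control siRNA (1.03, adjusted p 9.32e-05) and with FZD8_CRD present (0.81, adjusted p 0.000224; 0.87, 0.82 and 0.75 within slides), where AXIN2 was not called (0.14, adjusted p 0.544; 0.08, -0.02 and 0.36 within slides), and the Wnt3a response of RNF43 with and without FZD8_CRD was not shown to differ (0.07, adjusted p 0.948). With CTNNB1 siRNA the Wnt3a change was -0.25 for AXIN2 (adjusted p 0.391) and -0.21 for RNF43 (adjusted p 0.519), and set directly against the response with control siRNA it differed for RNF43 (-1.23, adjusted p 0.00188; -1.40, -0.95 and -1.35 within slides) and, with the slide as a term and not without it, for AXIN2 (-0.85, adjusted p 0.0528, 0.0279 with the slide as a term). FZD8_CRD without Wnt3a lowered the level of both (-0.60, adjusted p 0.000118, and -1.30, adjusted p 1.15e-07). Of the other controls, NKD1 stood at the floor throughout 6 of the 8 conditions and was tested only through the arrays of control siRNA with Wnt3a, so that its values are not given, and LGR5 was not tested.

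Hepatocytes are the cells that run the whole cycle, and the 7 hepatocyte markers (ALB, TTR, APOA1, APOB, TF, SERPINA1 and FGB) were well above background on all 24 arrays. Their summed signal was 1514, 1133 and 797 times the 75th percentile on the untransfected arrays and 927, 406 and 947 with Wnt3a. Control siRNA arrays gave 415, 386 and 400.5, and 272, 196 and 271 with Wnt3a. CTNNB1 siRNA arrays gave 634, 484 and 610.5, and 287, 396 and 510.2 with Wnt3a. The brightest probe of the 7 was that of ALB on 21 arrays and that of SERPINA1 on the 3 of control siRNA with Wnt3a. FZD8_CRD gave 374, 256 and 374 without Wnt3a and 400.1, 393 and 389.6 with it. The untransfected arrays without Wnt3a were thus above every array of the transfected and FZD8_CRD conditions, and the same held for CPS1. Fewer hepatocyte-like cells and less RNA per cell cannot be told apart in these bulk samples, and the part of these markers in the results was not tested.

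**Figure D1:**
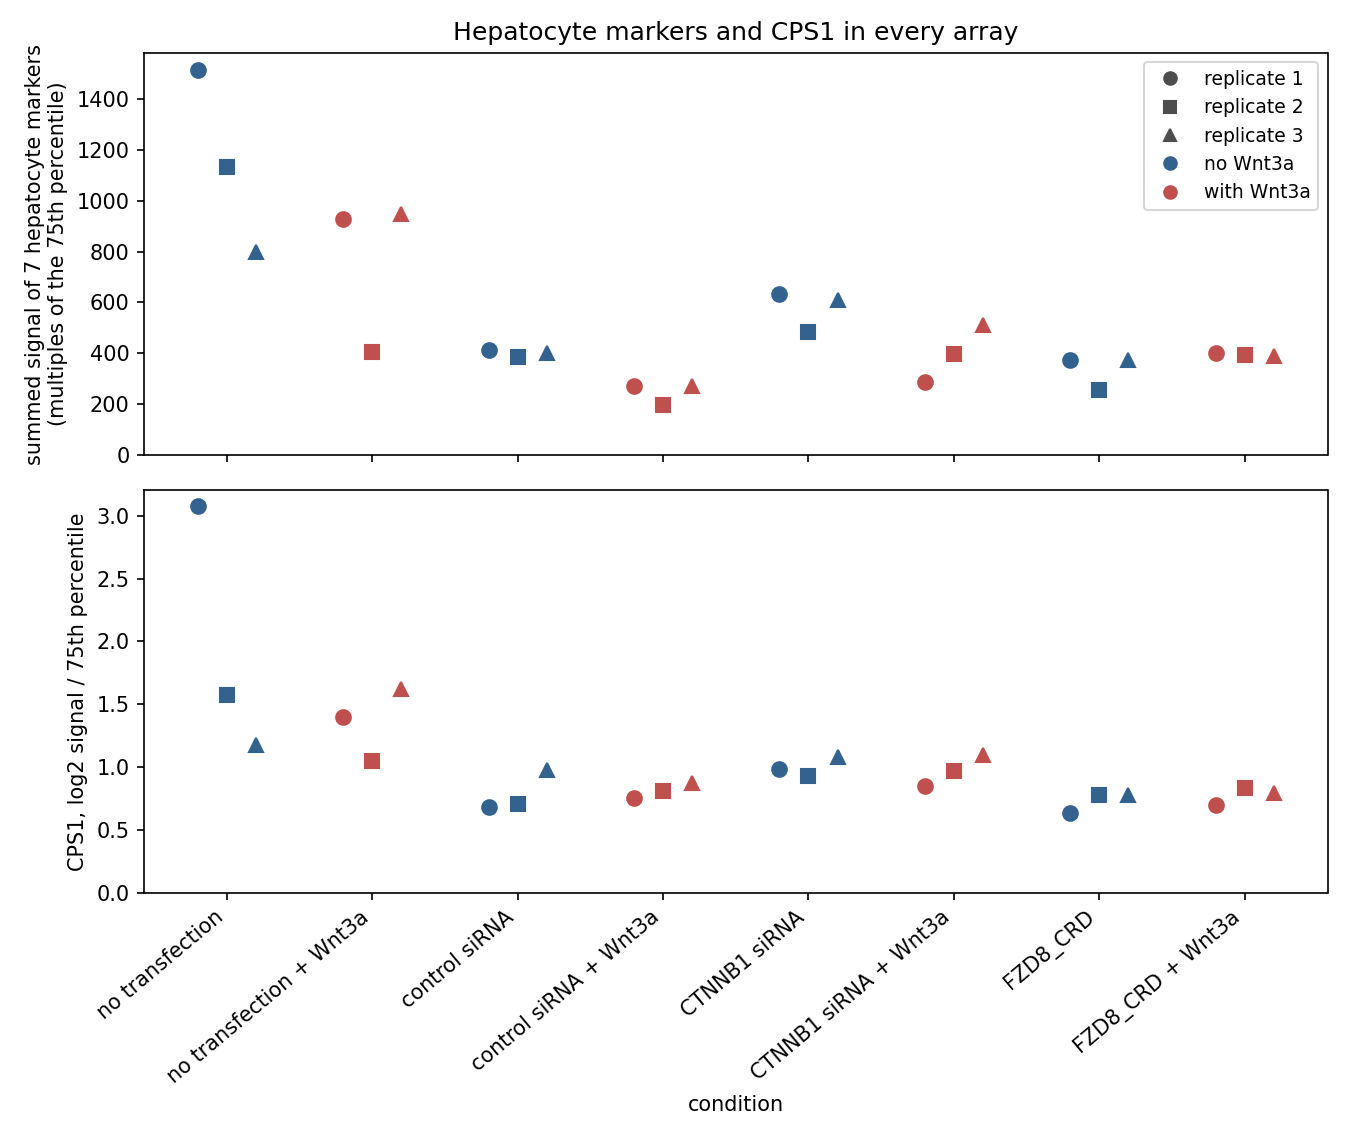
Top, summed signal of 7 hepatocyte markers (multiples of the 75th percentile of the array). Bottom, log2 signal of CPS1 relative to the same percentile. Each symbol is 1 of 24 arrays by condition, and untransfected replicate 1 is highest in both panels (1514 and 3.08).

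The promoters of the members range from 1 to 45 CG, and 4 from the low and high ends of this range are printed. RefSeq promoter windows (GRCh38.p14, 250 bases before to 50 after the start) matched 10 of 10 members with 13 windows. OTC and ARG1, both brightest on untransfected replicate 1, have 41.7 and 40% G or C and 3 and 1 CG. ASL and SLC25A15, which changed in opposite directions with FZD8_CRD (SLC25A15 changed sign when scaled to the spike-in probes), have 74 and 80% and 30 and 45 CG. Over all 35116 windows the medians are 58.7% and 14 CG, and the CG counts of GLS2 (14) and NAGS (15) lie near the second of these. The windows lie on the + strand at chrX:38352354-38352653 (OTC), chr6:131572976-131573275 (ARG1), chr7:66075569-66075868 (ASL) and chr13:40789361-40789660 (SLC25A15), and capitals mark each CG.
OTC: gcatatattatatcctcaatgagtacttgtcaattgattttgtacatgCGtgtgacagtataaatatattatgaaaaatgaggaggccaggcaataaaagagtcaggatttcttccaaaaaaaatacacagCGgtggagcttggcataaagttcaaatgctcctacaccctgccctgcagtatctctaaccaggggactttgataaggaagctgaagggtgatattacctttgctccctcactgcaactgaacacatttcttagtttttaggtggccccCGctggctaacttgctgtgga
ARG1: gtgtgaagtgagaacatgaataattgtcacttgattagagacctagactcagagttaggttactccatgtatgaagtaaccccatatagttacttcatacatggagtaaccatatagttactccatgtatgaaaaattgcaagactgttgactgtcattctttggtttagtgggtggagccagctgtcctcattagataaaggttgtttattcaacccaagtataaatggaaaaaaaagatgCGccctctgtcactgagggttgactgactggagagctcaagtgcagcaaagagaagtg
ASL: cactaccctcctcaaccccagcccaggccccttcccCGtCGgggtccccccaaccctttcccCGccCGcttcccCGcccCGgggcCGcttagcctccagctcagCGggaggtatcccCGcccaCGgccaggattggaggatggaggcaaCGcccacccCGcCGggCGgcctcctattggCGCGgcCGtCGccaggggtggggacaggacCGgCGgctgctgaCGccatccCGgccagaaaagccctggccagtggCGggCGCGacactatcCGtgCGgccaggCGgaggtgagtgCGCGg
SLC25A15: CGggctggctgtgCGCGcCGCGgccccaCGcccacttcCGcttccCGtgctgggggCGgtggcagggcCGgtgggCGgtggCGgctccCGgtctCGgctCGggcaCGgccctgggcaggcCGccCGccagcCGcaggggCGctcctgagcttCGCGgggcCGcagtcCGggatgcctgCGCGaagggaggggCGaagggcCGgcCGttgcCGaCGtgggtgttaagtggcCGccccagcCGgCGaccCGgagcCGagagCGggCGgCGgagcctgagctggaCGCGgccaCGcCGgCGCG

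Motifs were searched in the 13 windows on both strands: TATAAA for the TATA box, CTTTGA or CTTTGT for TCF/LEF, CAAAGTCCA or CAAAGGTCA for HNF4, and TTGCNNAA for C/EBP. They occur in 11.5, 26.2, 0.792 and 10.5% of all 35116 windows. ARG1 holds a TATA box match starting 29 bases before its start. OTC holds 1 at 192 bases before and a TCF/LEF match (CTTTGA) at 53 before. HAL holds a TATA box match 22 bases after its start and a C/EBP match (TTGCTCAA) 101 before. The windows of the other 7 members hold none of these letters. A match is a description of the letters, not of a bound site.

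GLS2, the liver glutaminase, frees ammonia from glutamine inside the mitochondrion (probe A_24_P326739, NM_013267). It read -0.39, -0.12 and -0.19 without transfection and -0.27, -0.34 and -0.15 with Wnt3a added. Control siRNA gave 0.15, 0.09 and 0.06, and -0.18, -0.25 and -0.33 with Wnt3a, so that these conditions did not overlap. With CTNNB1 siRNA it read 0.22, 0.39 and 0.14, and -0.01, 0.18 and 0.15 with Wnt3a, which do overlap. FZD8_CRD gave 0.18, 0.11 and -0.37, and -0.59, -0.69 and -0.49 with Wnt3a. In order of level, CTNNB1 siRNA (0.25 ± 0.13, SD, n = 3) was highest and FZD8_CRD with Wnt3a (-0.59 ± 0.10) lowest. Only the last step of that order, 0.34 log2 units from untransfected with Wnt3a, had no overlap between neighbours, and FZD8_CRD replicate 3 lay nearer the arrays with Wnt3a than replicates 1 and 2 did.

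CPS1 makes carbamoyl phosphate, the first and rate-limiting step of the cycle (A_33_P3242798, NM_001875), and was well above background on all 24 arrays. Its log2 signal was 3.08, 1.57 and 1.17 on the untransfected arrays and 1.39, 1.05 and 1.62 with Wnt3a. Replicate 1 without Wnt3a stood far above every other array. Values were 0.68, 0.71 and 0.98 with control siRNA and 0.76, 0.81 and 0.88 with Wnt3a in addition. CTNNB1 siRNA gave 0.98, 0.93 and 1.08, and 0.85, 0.97 and 1.10 with Wnt3a. FZD8_CRD gave 0.64, 0.77 and 0.78, and 0.70, 0.83 and 0.79 with Wnt3a. The untransfected arrays without Wnt3a lay above all arrays of control siRNA and FZD8_CRD. In order of the means, from 1.94 ± 1.01 to 0.73 ± 0.08 (SD, n = 3), every condition overlapped the next.

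NAGS makes N-acetylglutamate, which CPS1 needs for activity (A_32_P32739, NM_153006). Its log2 signal ran from -2.55 to -1.61 over the 24 arrays, with means from -2.37 ± 0.15 with CTNNB1 siRNA to -1.88 ± 0.07 with FZD8_CRD and Wnt3a (SD, n = 3). Each condition overlapped the next in order, and NAGS was called in 0 of the 12 comparisons in limma, with adjusted p from 0.123 to 1 and an unadjusted p under 0.05 in 1. With the slide as a term it was called for CTNNB1 siRNA with Wnt3a in both arms (-0.38, adjusted p 0.0241).

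OTC joins carbamoyl phosphate to ornithine to make citrulline (A_23_P257355, NM_000531), and was near the detection limit. Its intensity was 144, 32.6 and 15.7 on the untransfected arrays, all well above background, and 22, 5.78 and 26.3 with Wnt3a, where replicate 2 was not. With CTNNB1 siRNA the intensity was 28.6, 9.27 and 17.3, with replicate 2 again not well above background. On the log2 scale the untransfected arrays read -2.35, -4.58 and -5.62, with replicate 1 far above the other two. In the other 5 conditions no array rose well above background, and 4 of them stood at the floor of -6.13 throughout. In order, untransfected cells (-4.18 ± 1.67), untransfected with Wnt3a (-5.29 ± 0.73) and CTNNB1 siRNA (-5.58 ± 0.55; SD, n = 3) overlapped each other.

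SLC25A15 carries ornithine into the mitochondrion and citrulline out (A_33_P3840512, NM_014252). The untransfected arrays read -0.02, 0.02 and -0.07, and -0.34, -0.35 and -0.29 with Wnt3a, with no overlap. With control siRNA it read 0.20, 0.07 and 0.18, and -0.07, -0.01 and 0.00 with Wnt3a. CTNNB1 siRNA gave 0.06, 0.08 and -0.02, and 0.11, -0.09 and -0.22 with Wnt3a, a wider spread. FZD8_CRD gave 0.27, 0.31 and 0.25, and 0.04, 0.23 and 0.13 with Wnt3a. FZD8_CRD alone was highest (0.28 ± 0.03) and untransfected cells with Wnt3a lowest (-0.32 ± 0.03; SD, n = 3), each with no overlap with its neighbour, while the conditions between overlapped in sequence.

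ASS1 joins citrulline to aspartate in the cytosol (A_33_P3234580, NM_000050). Its log2 signal was 5.70, 5.59 and 5.61 without transfection, and 5.44, 5.00 and 5.61 with Wnt3a. The values were 5.32, 5.22 and 5.49 with control siRNA and 5.02, 4.91 and 5.18 with Wnt3a added. Replicate 3 of the untransfected cells read the same with and without Wnt3a. CTNNB1 siRNA gave 5.36, 5.38 and 5.63, and 4.90, 5.05 and 5.41 with Wnt3a. FZD8_CRD gave 5.29, 5.22 and 4.81, and 4.45, 4.50 and 4.67 with Wnt3a. All 3 arrays of FZD8_CRD with Wnt3a (4.54 ± 0.11) lay below every other array, and the 7 conditions above them overlapped in sequence from 5.63 ± 0.06 down (SD, n = 3).

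SLC25A13, the mitochondrial carrier that exports the aspartate ASS1 uses (A_23_P82334, NM_014251), read 2.05, 2.09 and 2.16 in untransfected cells and 1.91, 1.97 and 2.27 with Wnt3a. Control siRNA gave 2.33, 2.34 and 2.38, and 2.13, 2.39 and 2.51 with Wnt3a. Replicate 3 with Wnt3a was the highest array of its condition in both cases. CTNNB1 siRNA gave 2.22, 2.19 and 2.20, and 2.23, 2.23 and 2.30 with Wnt3a. FZD8_CRD gave 2.47, 2.52 and 2.37, and 2.44, 2.46 and 2.59 with Wnt3a. The order ran from FZD8_CRD with Wnt3a (2.49 ± 0.08) to untransfected with Wnt3a (2.05 ± 0.19; SD, n = 3), and only CTNNB1 siRNA had no overlap with its neighbours on either side.

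ASL splits argininosuccinate into arginine and fumarate (A_23_P26223, NM_001024943). Untransfected arrays read 4.67, 4.62 and 4.03, and 4.11, 3.63 and 4.27 with Wnt3a. Here the third replicate went the other way from the first and second. Readings with control siRNA were 3.83, 3.86 and 3.62, and 3.68, 3.74 and 3.60 with Wnt3a. CTNNB1 siRNA gave 4.01, 3.90 and 3.87, and 3.63, 3.79 and 3.79 with Wnt3a. FZD8_CRD gave 3.47, 3.41 and 3.55, and 3.71, 3.78 and 3.65 with Wnt3a. FZD8_CRD alone was lowest (3.48 ± 0.07), with no overlap with the next condition. Untransfected cells (4.44 ± 0.36), the same with Wnt3a and CTNNB1 siRNA formed the upper end in that order, the first overlapping the second and the second CTNNB1 siRNA, which had no overlap with control siRNA below it (SD, n = 3). The nearest arrays of CTNNB1 siRNA and control siRNA read 3.87 and 3.86, and this difference was not called in limma (0.15, adjusted p 0.628).

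ARG1, the arginase that releases urea, was well above background on 4 arrays by probe A_33_P3319967 and on 2 by A_33_P3352382 (both NM_001244438). The first gave intensities of 137, 16.8 and 6.33 on the untransfected arrays, the first and second well above background, and 27.3, 5.8 and 12.8 with CTNNB1 siRNA, where replicates 1 and 3 were. The other probe gave 109, 10.4 and -0.351 and 25.5, 2.64 and 9.48, with replicate 1 alone well above background in each. In the remaining 6 conditions no array reached that level. HAL, which frees ammonia from histidine (A_23_P61637, NM_002108), gave 38.6, 23.6 and 3.37 on the untransfected arrays and 13.9, -5.05 and 13.3 with Wnt3a, and was well above background on untransfected replicates 1 and 2 and on replicate 1 with Wnt3a. Neither gene was tested, and both were brightest on untransfected replicate 1.

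**Figure D2:**
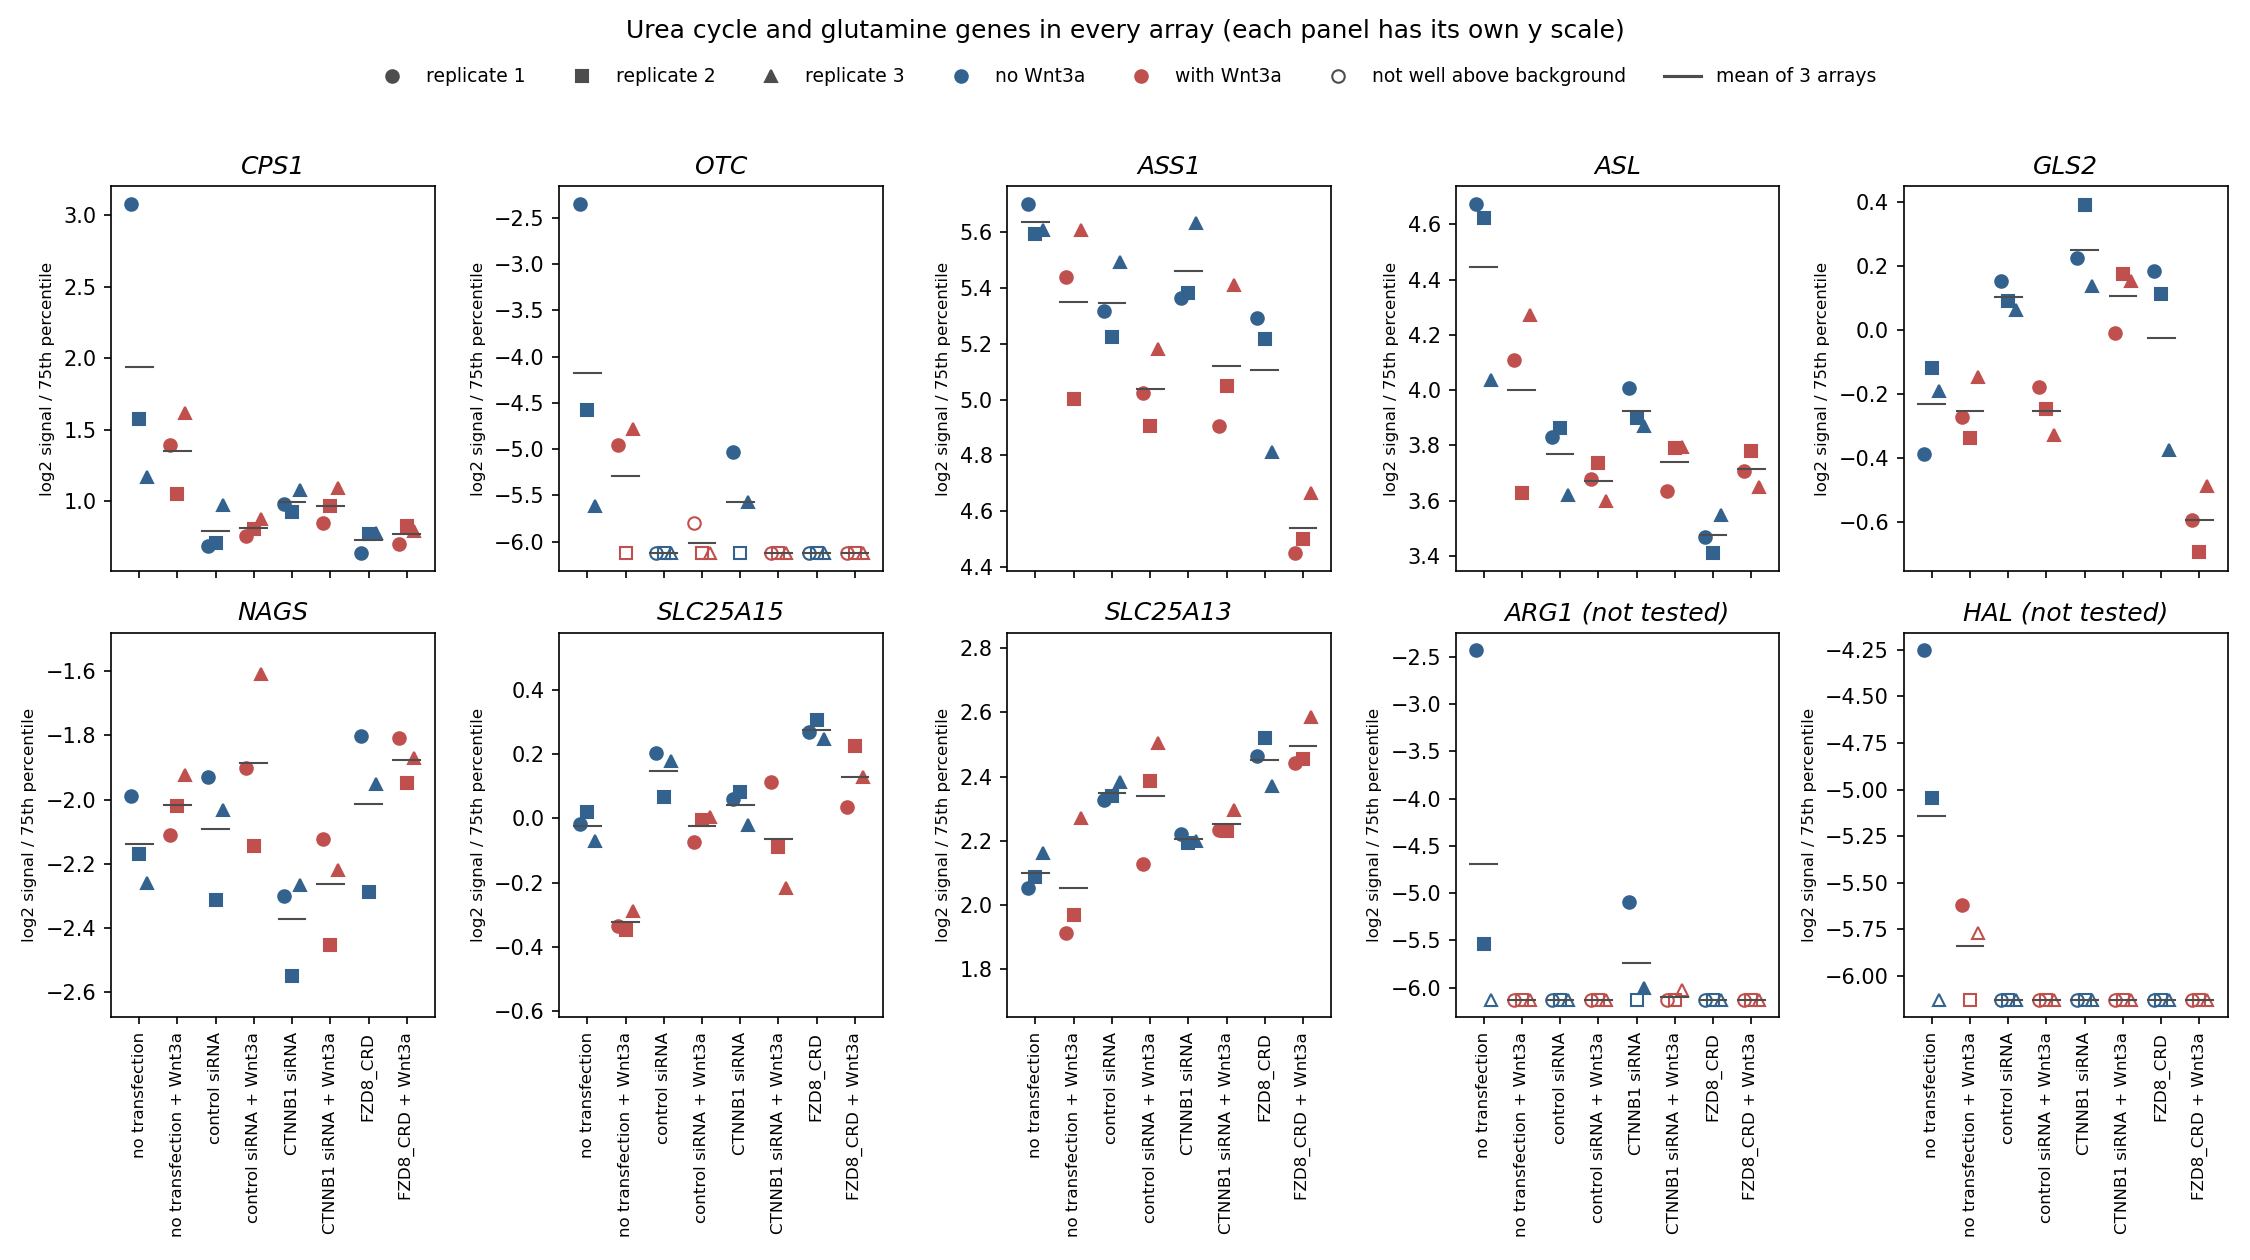
Log2 of the signal over the 75th percentile (vertical axis, own scale in each panel) of the 10 members on 24 arrays in 8 conditions; symbols show the replicate, open symbols arrays not well above background and lines the mean of 3 arrays. OTC sits at the floor of -6.13 in 4 conditions, and CPS1 is highest on untransfected replicate 1 (3.08).

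FZD8_CRD against untransfected cells shows what the soluble Wnt-binding domain goes with, and whether its changes come from bound Wnt was not tested. The test in limma without Wnt3a was passed by 6 of the 8 tested members, beside 41.9% of all genes. OTC is among the 6, and its difference was built in by the filter, so that 5 of the 7 others passed. CPS1, ASS1 and ASL fell. SLC25A15 and SLC25A13, the carriers, rose, but changed sign when arrays were scaled to the spike-in probes (-0.09 and -0.04), a scaling under which the median of all genes was -0.46 (before it -0.08). ASL fell by 0.97 on the log2 scale and was called under every alternative (SE 0.14, adjusted p 2.42e-05, 2.67e-05 with the slide as a term, 1.16e-06 to 0.0126 over them). Its differences within slides were -1.20, -1.21 and -0.48.

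CPS1 fell by 1.21 with FZD8_CRD (SE 0.28, adjusted p 0.00181, 0.00178 with the slide as a term), with differences of -2.45, -0.80 and -0.39 on slides 1 to 3. Without untransfected replicate 1 the change was smaller (-0.64, adjusted p 0.00131), without untransfected replicate 3 it was larger (-1.60, adjusted p 6.65e-05), and without FZD8_CRD replicate 3 it was -1.24, called each time. The adjusted p ran from 6.65e-05 to 0.0882 over the alternatives, the highest with only the conditions compared in the fit. OTC averaged -4.18 in untransfected cells, and its change was -1.94 with the FZD8_CRD arrays at the floor of -6.13. Without untransfected replicate 1 the change was -1.03. The FZD8_CRD arrays may lie below the floor, so that the fall may be larger. All FZD8_CRD arrays stood at the floor, so that the adjusted p of OTC (0.00469; 0.000132 to 0.0984 over the alternatives) is no support for a difference. ASS1 fell by 0.53 (SE 0.15, adjusted p 0.00759, 0.00338 with the slide as a term; -0.41, -0.38 and -0.80 within slides). Without FZD8_CRD replicate 3, the array nearer those with Wnt3a, ASS1 lost its call (-0.38, adjusted p 0.0552; 0.00338 to 0.0625 over the alternatives).

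SLC25A15 rose by 0.30 (SE 0.08, adjusted p 0.00391, 0.00242 with the slide as a term; 0.29, 0.29 and 0.32 within slides) and SLC25A13 by 0.35 (SE 0.09, adjusted p 0.00327, 0.000886 with the slide as a term; 0.41, 0.43 and 0.21 within slides), while scaling to the spike-in probes gave -0.09 and -0.04 (0.00214 to 0.803 and 0.000588 to 0.922 over the alternatives). Neither was called without slide 2 (adjusted p 0.068 and 0.116). A second SLC25A15 probe (A_21_P0012276) gave 0.28, and the second ASS1 probe (A_23_P31921) -0.42. GLS2 was not called (0.21, adjusted p 0.173), but was without FZD8_CRD replicate 3 (0.38, adjusted p 0.00442) or slide 3 (0.40, adjusted p 0.00712; 0.00442 to 0.935 over the alternatives). NAGS was not called (0.13, adjusted p 0.534). The hepatocyte markers moved with the fall of CPS1 and ASL: 7 of 7 were lower (median log2 change -2.32), though APOA1 (-5.09, -3.94 and 0.77 within slides) and TTR (-5.01, -3.69 and 1.47) were higher on slide 3, and their part was not tested.

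With Wnt3a in both arms, FZD8_CRD changed 4 of the 8 tested members, beside 37.2% of all genes. ASS1 and GLS2 fell and SLC25A15 and SLC25A13 rose. ASS1 fell by 0.81 (SE 0.15, adjusted p 0.000282, 0.000111 with the slide as a term, 3.4e-05 to 0.0386 over the alternatives), with -0.99, -0.50 and -0.94 within slides. SLC25A15 rose by 0.45 (SE 0.08, adjusted p 0.000129; 0.37, 0.58 and 0.42 within slides) and SLC25A13 by 0.44 (SE 0.09, adjusted p 0.000592; 0.53, 0.49 and 0.31). With the slide as a term the adjusted p of these carriers was 8.08e-05 and 0.000143. Scaled to the spike-in probes, with the median of all genes at -0.16 (before it -0.08), neither carrier was called (0.37, adjusted p 0.442, and 0.35, adjusted p 0.479; 7.91e-05 to 0.442 and 6.95e-05 to 0.479 over the alternatives).

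GLS2 fell by 0.34 in the same comparison (SE 0.12, adjusted p 0.0287, 0.0231 with the slide as a term), by nearly equal amounts within slides (-0.32, -0.36 and -0.34). Its call was lost without untransfected replicate 1 or 3 with Wnt3a (-0.35, adjusted p 0.0617, and -0.29, adjusted p 0.0987) and without FZD8_CRD replicate 1 or 2 with Wnt3a (-0.34, adjusted p 0.0665, and -0.29, adjusted p 0.112; 0.0199 to 0.414 over the alternatives). Nor was it called with quantile normalization (-0.31, adjusted p 0.0519), spike-in scaling (-0.43, adjusted p 0.414) or only the conditions compared (adjusted p 0.0512). CPS1 (-0.58, adjusted p 0.119) and ASL (-0.29, adjusted p 0.125) were not called, though CPS1 was with only the conditions compared in the fit (-0.58, adjusted p 0.0254; 0.0254 to 0.3 over the alternatives) and ASL without untransfected replicate 2 with Wnt3a (-0.48, adjusted p 0.00785; 0.00785 to 0.496 over the alternatives). OTC was not called either, and with no FZD8_CRD array well above background its passing with a floor of 1 intensity unit (adjusted p 0.0441) is no support for a difference. Of the hepatocyte markers, 4 of 7 were lower (median -1.07), TF passing as well with the slide as a term (-1.53, adjusted p 0.095, 0.0344 with the slide as a term). APOA1 (0.55, adjusted p 0.54) and TTR (1.41, adjusted p 0.132) were higher on all 3 slides and not called. The part of these markers was not tested.

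Around the members, other glutamine, arginine and periportal genes were counted for FZD8_CRD, beside the 41.9% of all genes called without and 37.2% called with Wnt3a. Without Wnt3a, 10 of 14 tested genes of glutamine and glutamate metabolism were called, 3 higher and 7 lower (median -0.25 beside -0.08 over all genes; GPT2, 1 of the 3 higher, was at -0.04 when scaled to the spike-in probes). They included GPT, alanine aminotransferase (-2.56, adjusted p 1.38e-05), the amino acid transporter SLC38A4 (-1.41, adjusted p 4.91e-05), the ammonium transporter RHBG (-1.39, adjusted p 0.00695) and the glutamine transporter SLC1A5 (1.02, adjusted p 4.41e-05). Of 13 genes of arginine and ornithine use, 5 were higher and 5 lower (median 0.14; ODC1, among the higher, was at -0.05 when scaled to the spike-in probes). GATM, which starts creatine synthesis from arginine, was lower (-3.15, adjusted p 3.13e-05), as were proline dehydrogenase PRODH (-1.44, adjusted p 7.68e-06) and agmatinase AGMAT (-0.84, adjusted p 0.00174), while spermine synthase SMS was higher (0.94, adjusted p 4.44e-07).

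Of 5 tested genes among 11 others known as periportal, 4 were lower (median -1.17), with AMDHD1 of histidine breakdown (-1.32, adjusted p 0.000368) and serine dehydratase SDS (-1.17, adjusted p 0.000888) among them. Of 7 genes that serve the cycle, 5 were lower and 0 higher (median -0.40), among them the solute channel AQP9 (-2.41, adjusted p 5.31e-05), CA5A, which supplies mitochondrial bicarbonate (-2.06, adjusted p 5.03e-08), and the deacylase SIRT5 (-0.56, adjusted p 0.00129). Of 10 transcription regulators of hepatocyte genes, 7 were lower and 1 higher (median -1.13; the higher one, NR3C1, was at -0.10 when scaled to the spike-in probes), with ONECUT1 (-4.46, adjusted p 4.2e-07), HNF4A (-1.70, adjusted p 0.000633), PPARGC1A (-1.54, adjusted p 2.95e-05) and FOXA1 (-1.53, adjusted p 9.98e-05).

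With Wnt3a in both arms the counts were 2 higher and 6 lower of 14 glutamine genes (median -0.24 beside -0.08 over all genes), 4 and 3 of 13 arginine genes (0.05), 0 and 1 of 5 periportal genes (-0.48), 0 and 4 of 7 that serve the cycle (-0.41) and 1 and 8 of 10 regulators (-1.00). GPT (-2.80, adjusted p 8.9e-06), cytosolic aspartate aminotransferase GOT1 (-1.44, adjusted p 4.91e-05) and SLC38A4 (-1.08, adjusted p 0.000802) were lower. GATM (-2.20, adjusted p 0.0012), PRODH (-1.19, adjusted p 8.61e-05) and the arginine transporter SLC7A2 (-1.00, adjusted p 0.000193) were lower too, and SMS higher (0.67, adjusted p 1.74e-05). CA5A (-1.91, adjusted p 1.07e-07), ONECUT1 (-4.45, adjusted p 6.38e-07), PPARGC1A (-2.22, adjusted p 1.38e-06), FOXA1 (-2.03, adjusted p 8.74e-06) and HNF4A (-1.22, adjusted p 0.00955) were lower.

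**Figure D3:**
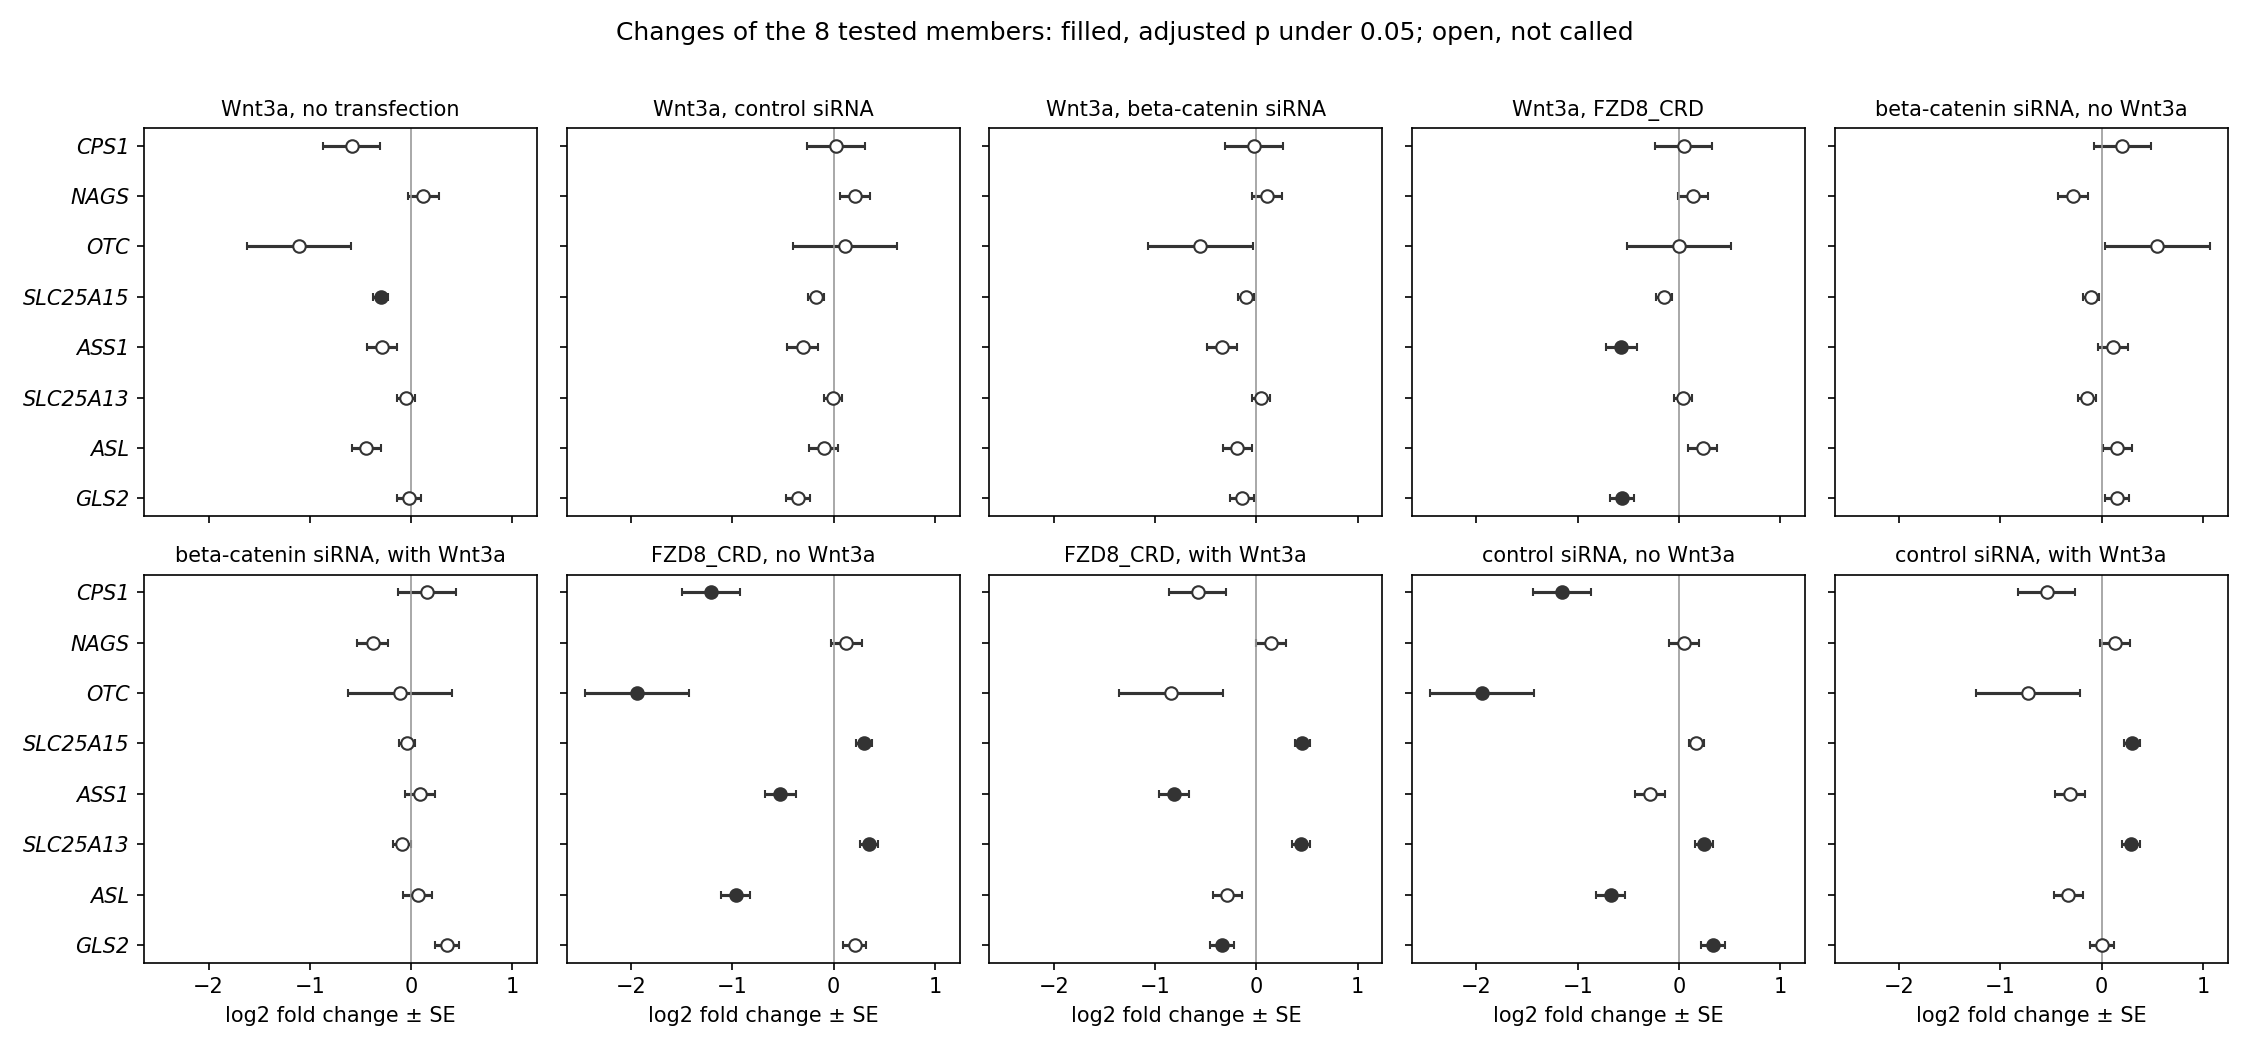
Log2 fold change (horizontal axis, bars show the SE) of the 8 tested members in 10 comparisons; filled points passed the test at an adjusted p under 0.05. With FZD8_CRD and no Wnt3a, ASL is at -0.97 and SLC25A13 at 0.35, the latter at -0.04 when arrays were scaled to the spike-in probes, as SLC25A15 was at -0.09 there and SLC25A13 at -0.03 with control siRNA.

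Control siRNA against untransfected cells shows what transfection alone goes with, and it shares the untransfected arrays with the FZD8_CRD comparisons. Without Wnt3a, 5 of the 8 tested members passed in limma, beside 22.4% of all genes. OTC, its difference again built in by the filter, is among the 5, so that 4 of the 7 others passed. CPS1 and ASL fell. GLS2 and SLC25A13 rose, but when scaled to the spike-in probes GLS2 lost its call (0.05, adjusted p 0.927) and SLC25A13 changed sign (-0.03), a scaling under which the median of all genes was -0.31 (before it -0.03). ASL fell by 0.67 (SE 0.14, adjusted p 0.00219, 0.0019 with the slide as a term, 8e-05 to 0.149 over the alternatives; -0.84, -0.76 and -0.41 within slides). CPS1 fell by 1.15 (SE 0.28, adjusted p 0.00592, 0.00531 with the slide as a term; -2.40, -0.87 and -0.20 within slides), and by less without untransfected replicate 1 (-0.58, adjusted p 0.00933). Over the alternatives the adjusted p of CPS1 ran from 0.00026 to 0.153.

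By the mean of its arrays, OTC was at least 3.84-fold higher in untransfected cells than with control siRNA, and at least 2.03-fold without untransfected replicate 1. For this the level of the control siRNA arrays was set, array by array, to the higher of the probe's own signal and the lowest signal among probes well above background. That level averaged -6.12, and the untransfected arrays ran from -5.62 to -2.35, so that the bound does not hold for each array. It is a description only, since the filter built in a difference from the untransfected arrays. All control siRNA arrays stood at the floor, so that its adjusted p (0.00958, or 0.0601 without untransfected replicate 1; 0.000338 to 0.2 over the alternatives) is no support for a difference. SLC25A13 rose by 0.25 (SE 0.09, adjusted p 0.0499, 0.0191 with the slide as a term; 0.27, 0.25 and 0.22 within slides). Its call was lost without untransfected replicate 1 (0.22, adjusted p 0.159) or 2 (0.24, adjusted p 0.109), and without control siRNA replicate 1 (0.26, adjusted p 0.0926), 2 (0.25, adjusted p 0.0991) or 3 (0.23, adjusted p 0.131; 0.0191 to 0.95 over the alternatives). GLS2 rose by 0.33 (SE 0.12, adjusted p 0.0471, 0.036 with the slide as a term; 0.54, 0.21 and 0.25 within slides). That call was lost without untransfected replicate 1 (0.26, adjusted p 0.218) or 3 (0.35, adjusted p 0.0627), and without control siRNA replicate 1 (0.31, adjusted p 0.131), 2 (0.34, adjusted p 0.0949) or 3 (0.35, adjusted p 0.0802; 0.0176 to 0.927 over the alternatives). Of the 7 members other than OTC, 2 were called without untransfected replicate 1 or any 1 of the control siRNA arrays. Without slide 1 the count was 0 (CPS1 -0.53, adjusted p 0.134; ASL -0.59, adjusted p 0.149), and without slide 2 it was 1, CPS1 again not called (-1.30, adjusted p 0.0789). The share of all genes called in these fits is not given. ASS1 (-0.29, adjusted p 0.189) and SLC25A15 (0.17, adjusted p 0.121) were not called, though ASS1 was without slide 3 (-0.38, adjusted p 0.0272; 0.0272 to 0.605 over the alternatives). Hepatocyte markers were lower in 7 of 7 cases (median -1.89), moving with CPS1 and ASL, and their part was not tested.

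With Wnt3a in both arms, control siRNA raised 2 of the 8 tested members, the carriers, beside 8.87% of all genes. SLC25A15 rose by 0.30 (SE 0.08, adjusted p 0.0206, 0.012 with the slide as a term; 0.26, 0.34 and 0.29 within slides). SLC25A13 rose by 0.29 (SE 0.09, adjusted p 0.0472, 0.0175 with the slide as a term; 0.21, 0.42 and 0.23 within slides), although the groups overlapped. SLC25A15 lost its call without untransfected replicate 1 with Wnt3a (0.29, adjusted p 0.098) and without control siRNA replicate 2 (0.29, adjusted p 0.0945) or 3 with Wnt3a (0.28, adjusted p 0.0767; 0.012 to 0.342 over the alternatives), and the count was then 0 each time. SLC25A13 also lost it without these (untransfected 1, 0.22, adjusted p 0.264; control 2, 0.26, adjusted p 0.182; control 3, 0.21, adjusted p 0.227) and without untransfected replicate 2 with Wnt3a (0.25, adjusted p 0.101; 0.00973 to 0.464 over the alternatives). Leaving out that last array brought ASS1 (-0.49, adjusted p 0.0272; 0.0272 to 0.961 over the alternatives) and ASL (-0.52, adjusted p 0.0106; 0.0106 to 0.939) past the threshold. Scaled to the spike-in probes, with the median of all genes at 0.25 (before it -0.02), SLC25A15 (0.58, adjusted p 0.342) and SLC25A13 (0.57, adjusted p 0.368) were not called, nor with only the conditions compared in the fit (adjusted p 0.198 and 0.363). Of the hepatocyte markers, 5 of 7 were lower (median -1.46), and their part was not tested.

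Among the other lists, beside 22.4% of all genes called, control siRNA without Wnt3a went with 4 higher and 3 lower of 14 glutamine genes (median 0.05 beside -0.03 over all genes; GPT2, among the higher, was at -0.06 when scaled to the spike-in probes) and 4 and 4 of 13 arginine genes (-0.02; AZIN1 at -0.03 by that scaling). SLC1A5 (0.89, adjusted p 0.000684) and asparagine synthetase ASNS (0.73, adjusted p 0.000379) rose, and GATM (-2.64, adjusted p 0.000692), AGMAT (-0.91, adjusted p 0.00228) and PRODH (-0.77, adjusted p 0.00664) fell. Lower were 3 of 5 periportal genes (median -0.89), 2 of 7 that serve the cycle (-0.21), AQP9 (-2.02, adjusted p 0.000988) and CA5A (-0.60, adjusted p 0.00543), and 3 of 10 regulators (-0.42; 1 higher, NR3C1, at -0.05 when scaled to the spike-in probes), with ONECUT1 (-2.94, adjusted p 0.000184). With Wnt3a in both arms, beside 8.87% of all genes, GLUD1, glutamate dehydrogenase (-0.43, adjusted p 0.00485), was the 1 glutamine gene called (median -0.11 beside -0.02 over all genes), and 1 of 13 arginine genes was higher and 1 lower (0.02). Of the periportal genes 1 of 5 was lower (-0.16), 1 of 7 that serve the cycle was lower (-0.18), and so were 3 of 10 regulators (-0.44), with ONECUT1 (-2.96, adjusted p 0.00156).

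**Figure D4:**
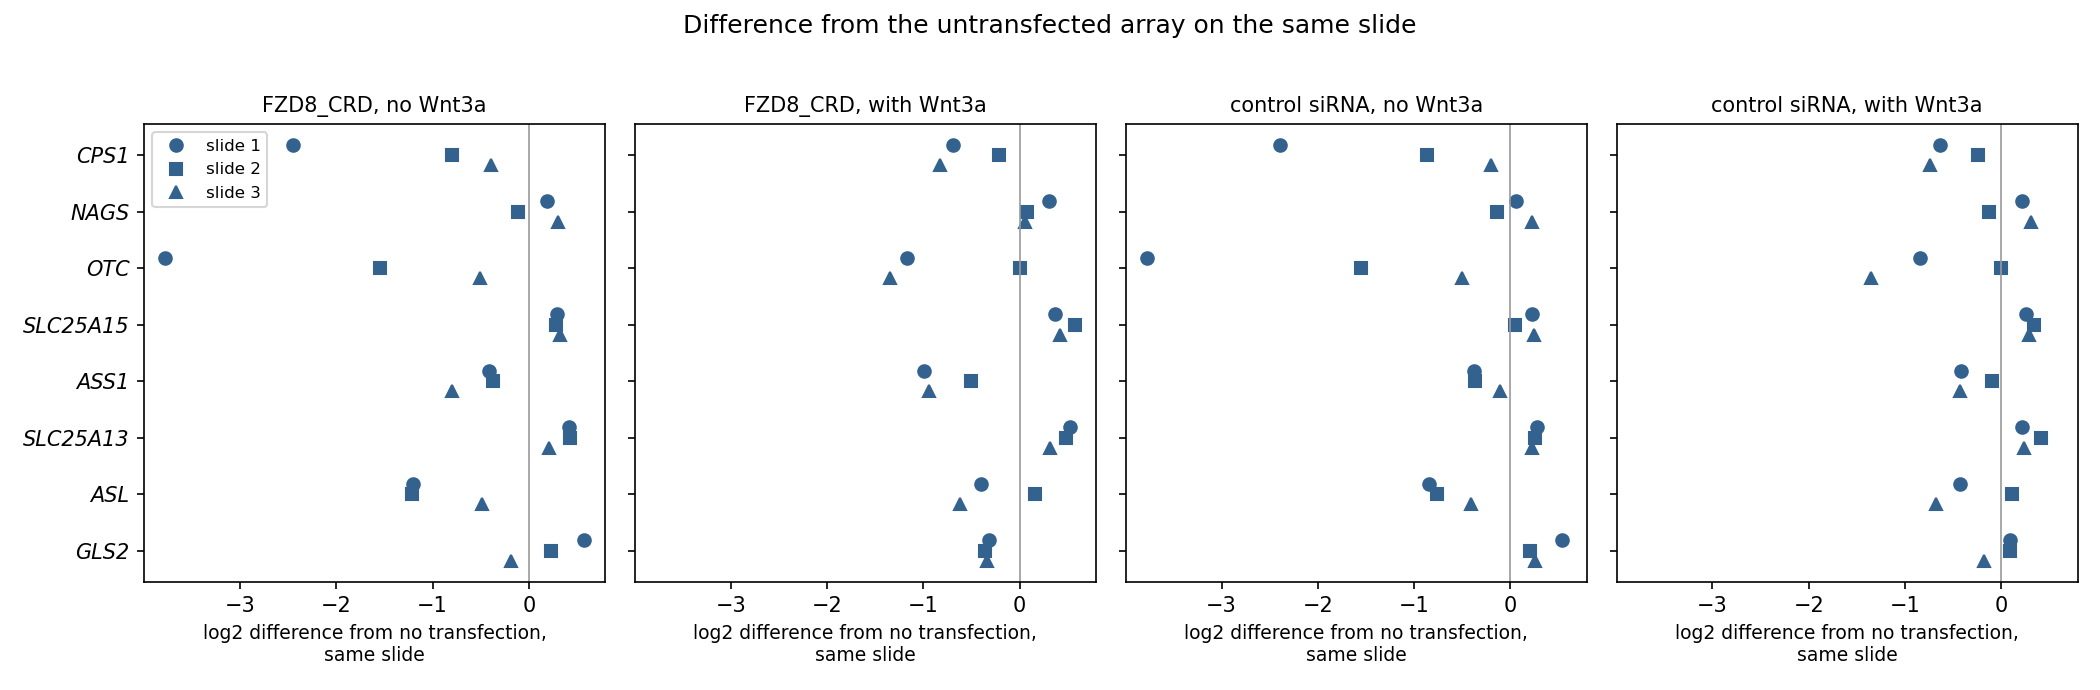
Log2 difference from the untransfected array on the same slide (horizontal axis) for the 8 tested members with FZD8_CRD and control siRNA, without and with Wnt3a; each symbol is 1 slide. CPS1 with FZD8_CRD and no Wnt3a is at -2.45, -0.80 and -0.39 on slides 1 to 3.

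Wnt3a in untransfected cells asks what added ligand does to these genes. SLC25A15 fell, and it was the 1 of 8 tested members that passed in limma, beside 5.42% of all genes. The change was -0.30 (SE 0.08, adjusted p 0.0285, 0.0163 with the slide as a term), with -0.32, -0.37 and -0.22 within slides and -0.27 by the second probe. The call was lost without untransfected replicate 1 (-0.30, adjusted p 0.088) or 2 (-0.28, adjusted p 0.109), and without replicate 1 (-0.30, adjusted p 0.0583) or 2 with Wnt3a (-0.29, adjusted p 0.142; 0.0157 to 0.833 over the alternatives), where the count was 0. It was also lost with normexp (-0.28, adjusted p 0.0768), with only the conditions compared (adjusted p 0.47) and when scaled to the spike-in probes (-0.70, adjusted p 0.144), where the median of all genes was -0.37 (before it 0.02).

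CPS1 and ASL were not called (-0.59, adjusted p 0.24, and -0.44, adjusted p 0.0756). On slides 1 to 3 the differences were -1.69, -0.52 and 0.45 for CPS1 and -0.57, -1.00 and 0.24 for ASL, so that slide 3 went the other way from slides 1 and 2 for each. Untransfected replicate 3 without Wnt3a lay nearer the arrays with it, and replicate 3 with Wnt3a nearer those without, and an exchange of these 2 arrays was not tested. On slides 1 to 3 the Wnt targets differed by 0.52, 0.79 and 0.91 (RNF43) and 0.39, 0.20 and 0.54 (AXIN2, at -0.03 over the slides when scaled to the spike-in probes), most on slide 3 and in the direction of the labels. OTC was not called, and is left out of the counts that follow, since it was tested only through these untransfected arrays and stood at the floor on replicate 2 with Wnt3a. Leaving out untransfected replicate 3 brought CPS1 (-0.97, adjusted p 0.0208) and ASL (-0.65, adjusted p 0.00445) past the threshold, a count of 3 of the 7 others. Without replicate 3 with Wnt3a, ASL passed (-0.58, adjusted p 0.0172), a count of 2. Without slide 3 altogether the count was 4: CPS1 (-1.10, adjusted p 0.0284), ASS1 (-0.43, adjusted p 0.0176), ASL (-0.78, adjusted p 0.00144) and SLC25A15 (-0.34, adjusted p 0.0157). The share of all genes called in these fits is not given, so that the counts do not set the members apart from other genes. Without slide 1 CPS1 was near 0 (-0.04, adjusted p 0.983), and over the alternatives the adjusted p ran from 0.0208 to 0.994 for CPS1, 0.0176 to 1 for ASS1 and 0.00144 to 1 for ASL. OTC passed as well without untransfected replicate 3 and without slide 3 (adjusted p 0.0165 and 0.0272), for the same reason no support for a difference. The hepatocyte markers also varied between these arrays. Against the others of its condition, untransfected replicate 1 was above for 7 of 7 (median 0.93), replicate 2 for 3 (-0.06) and replicate 3 for 0 (-0.95). With Wnt3a, replicates 1 and 3 were above for 7 of 7 (0.62 and 0.65) and replicate 2 for 0 (-1.19). None of the 7 was called for Wnt3a, with 2 at an unadjusted p under 0.05 in limma, and their part was not tested.

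With control siRNA, Wnt3a changed 0 of the 8 tested members in limma, with 2 at an unadjusted p under 0.05, beside 2.02% of all genes called. GLS2 was lower on all 3 slides (-0.33, -0.34 and -0.39; -0.35, adjusted p 0.133), and its adjusted p ran from 0.0367 to 0.92 over the alternatives, under the threshold with only the conditions compared. ASS1 was not called either (-0.31, adjusted p 0.366). With CTNNB1 siRNA the count was again 0, with 1 at an unadjusted p under 0.05, beside 0.0406% of all genes, and ASS1 was again not called (-0.34, adjusted p 0.438). Scaled to the spike-in probes, the median of all genes was 0.18 with control siRNA and -0.10 with CTNNB1 siRNA (before it 0.03 and 0.03). The hepatocyte markers gave 0 calls of 7 in both cases in limma, with 3 and 2 at an unadjusted p under 0.05 (medians -0.88 and -0.72), though with the slide as a term ALB passed with control siRNA (-1.15, adjusted p 0.0596, 0.0262 with the slide as a term; -0.92, -1.60 and -0.93 within slides).

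With FZD8_CRD present, Wnt3a lowered 2 of the 8 tested members, ASS1 and GLS2, beside 8.22% of all genes. ASS1 fell by 0.57 (SE 0.15, adjusted p 0.0233, 0.0112 with the slide as a term) and GLS2 by 0.56 (SE 0.12, adjusted p 0.00622, 0.00502 with the slide as a term). Within slides the differences were -0.84, -0.72 and -0.15 for ASS1 and -0.78, -0.81 and -0.11 for GLS2, smallest on slide 3, whose FZD8_CRD array lay nearer those with Wnt3a. ASS1 lost its call without FZD8_CRD replicate 1 (-0.48, adjusted p 0.175) or 2 (-0.51, adjusted p 0.139) and without replicate 1 (-0.52, adjusted p 0.0959) or 2 with Wnt3a (-0.55, adjusted p 0.0819; 0.000476 to 0.681 over the alternatives). GLS2 lost it without FZD8_CRD replicate 1 (-0.46, adjusted p 0.0695) or 2 (-0.50, adjusted p 0.0609; 2.26e-05 to 0.582 over the alternatives), so that the count was 0 without either of these and 1 without replicate 1 or 2 with Wnt3a. When scaled to the spike-in probes, neither was called (ASS1 -0.67, adjusted p 0.461; GLS2 -0.66, adjusted p 0.582). Hepatocyte markers were mixed, 2 higher and 1 lower of 7 (median 0.42).

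Among the other lists, beside 5.42% of all genes called, Wnt3a in untransfected cells went with 1 higher and 1 lower of 14 glutamine genes (median -0.19 beside 0.02 over all genes), the glutamine transporter SLC38A3 being higher (0.94, adjusted p 0.00236). Counts were 1 and 1 of 13 arginine genes (0.05; the higher one, AZIN1, was at -0.15 when scaled to the spike-in probes), 0 of 5 periportal genes in limma (-0.71, with 4 at an unadjusted p under 0.05), 1 lower of 7 that serve the cycle (-0.39) and 1 lower of 10 regulators (-0.50). With control siRNA (2.02% of all genes) they were 1 higher and 3 lower glutamine genes (-0.23) and 2 lower of those that serve the cycle (-0.08), each of which lost its call without at least 1 array. None was called among arginine genes (0.01), periportal genes (-0.32) and regulators (-0.45) there, with 5, 0 and 6 at an unadjusted p under 0.05 in limma. With CTNNB1 siRNA 0 genes of the 5 lists were called in limma, with 3, 7, 0, 3 and 5 at an unadjusted p under 0.05 (medians -0.15, -0.01, -0.52, -0.17 and -0.39). With FZD8_CRD (8.22% of all genes), 2 glutamine genes were higher and 6 lower (-0.27 beside 0.02), 1 and 2 arginine genes (0.01), 1 and 3 of those that serve the cycle (-0.02) and 0 and 4 regulators (-0.37), while 0 periportal genes were called in limma and 0 were at an unadjusted p under 0.05 (-0.05). GOT1 (-1.27, adjusted p 0.0021) and PPARGC1A (-1.23, adjusted p 0.00362) fell there and SLC38A3 rose (0.91, adjusted p 0.00199).

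Knocking down beta-catenin asks which genes need it, and 0 of the 8 tested members were called in limma against control siRNA without Wnt3a, with 0 at an unadjusted p under 0.05, beside 10.5% of all genes. NAGS (-0.28, adjusted p 0.284) and CPS1 (0.21, adjusted p 0.791) had the largest values of the 7 members other than OTC, which stood at the floor on all control siRNA arrays. SLC25A13 (-0.14, adjusted p 0.373) passed with only the conditions compared in the fit (-0.14, adjusted p 0.0421; 0.0421 to 1 over the alternatives). With Wnt3a in both arms the count was 0 with 2 at an unadjusted p under 0.05, beside 10.6% of all genes. GLS2 was higher on all 3 slides (0.17, 0.42 and 0.48; 0.36, adjusted p 0.0578, 0.0446 with the slide as a term, 0.0446 to 0.859 over the alternatives) and NAGS lower on all 3 (-0.22, -0.31 and -0.61; -0.38, adjusted p 0.123, 0.0241 with the slide as a term, 0.0241 to 0.486 over the alternatives). NAGS thus passed only with the slide as a term, and GLS2 with it, with normexp (0.37, adjusted p 0.0482) and with only the conditions compared (0.36, adjusted p 0.0479). Scaled to the spike-in probes, the median of all genes was -0.22 with Wnt3a (before it -0.02). Of the hepatocyte markers 0 of 7 were called without Wnt3a in limma, with 1 at an unadjusted p under 0.05, and 1 was higher with it (medians 0.65 and 0.68).

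Other glutamine genes did change with the knockdown, beside 10.5 and 10.6% of all genes: 5 of 14 were lower and 0 higher without Wnt3a (median -0.19 beside -0.03 over all genes), and 4 and 0 with it (-0.10 beside -0.02). SLC38A3 fell by 1.33 without Wnt3a (adjusted p 1.95e-05) and by 2.37 with it (adjusted p 9.19e-09). SLC38A4 (-0.98, adjusted p 0.00725), the mitochondrial alanine aminotransferase GPT2 (-0.63, adjusted p 2.74e-05) and ASNS (-0.62, adjusted p 0.00197) fell without Wnt3a, and GPT2 with it (-0.34, adjusted p 0.00664). Of the arginine genes 1 was lower in each case (medians -0.08 and -0.02), with Wnt3a the polyamine acetylase SAT1 (-0.68, adjusted p 0.000218). Periportal genes were higher in 1 and 2 of 5 cases (medians 0.29 and 0.10) and regulators in 1 and 3 of 10 (0.13 and 0.38), NR3C1 among them with Wnt3a (0.28, adjusted p 0.00796). CA5A fell with Wnt3a (-0.75, adjusted p 0.00173), 1 of 7 genes that serve the cycle (median 0.11), and without Wnt3a 0 were called in limma, with 2 at an unadjusted p under 0.05.

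The difference between Wnt3a responses was tested directly, since a call in 1 condition and not in another shows no difference. For CTNNB1 siRNA against control siRNA, 0 of the 8 tested members passed in limma, with 0 at an unadjusted p under 0.05, beside 0.0162% of all genes, with GLS2 at 0.21 (adjusted p 1). For FZD8_CRD against none the count was 0 with 2 at an unadjusted p under 0.05, beside 0.073% of all genes. ASL (0.68, adjusted p 0.16) differed by 0.80, 1.37 and -0.14 within slides and passed without untransfected replicate 3 (0.88, adjusted p 0.0178; 0.00234 to 1 over the alternatives). GLS2 (-0.54, adjusted p 0.169) differed by -0.89, -0.59 and -0.16 and passed without FZD8_CRD replicate 3 (-0.72, adjusted p 0.00199; 0.00199 to 1), a count of 1 each time. No share of all genes is given for these fits without an array. Scaled to the spike-in probes, the medians of all genes were -0.28 and 0.31 in these 2 tests (before it 0.01 and 0.01). No gene of the 5 other lists was called in either test in limma, with 5 and 11 at an unadjusted p under 0.05.

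GLS2 and ARG1 have counterparts used elsewhere in the lobule or cell: GLUL, which makes glutamine, and ARG2, the mitochondrial arginase. GLUL read 4.72, 4.74 and 4.71 in untransfected cells, 4.17, 4.03 and 3.51 with FZD8_CRD and 3.10, 3.15 and 3.30 with FZD8_CRD and Wnt3a, with no overlap between these conditions. It fell with FZD8_CRD (-0.82, adjusted p 2.17e-05; with Wnt3a in both arms -1.35, adjusted p 3.41e-07) and with Wnt3a on top of FZD8_CRD (-0.72, adjusted p 0.00168). CTNNB1 siRNA lowered it too (-0.43, adjusted p 0.0272; -0.41, adjusted p 0.0335 with Wnt3a). That call was lost without any 1 of the 6 arrays compared without Wnt3a (control siRNA 1 to 3: -0.44, adjusted p 0.0723, -0.40, adjusted p 0.0915, and -0.44, adjusted p 0.0625; CTNNB1 siRNA 1 to 3: -0.42, adjusted p 0.0754, -0.39, adjusted p 0.0965, and -0.46, adjusted p 0.0538). With Wnt3a it was lost without control siRNA 1 (-0.36, adjusted p 0.13) or 2 (-0.38, adjusted p 0.11) or CTNNB1 siRNA 1 (-0.34, adjusted p 0.139), 2 (-0.44, adjusted p 0.0609) or 3 (-0.44, adjusted p 0.0572). It was not called for Wnt3a in untransfected cells (-0.19, adjusted p 0.396), with control siRNA (-0.26, adjusted p 0.32) or with CTNNB1 siRNA (-0.25, adjusted p 0.493), nor for control siRNA (0.07, adjusted p 0.769; -0.01, adjusted p 0.985 with Wnt3a). The difference in its Wnt3a response with FZD8_CRD was not called (-0.53, adjusted p 0.185), but was without FZD8_CRD replicate 3 (-0.72, adjusted p 0.00118).

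**Figure D5:**
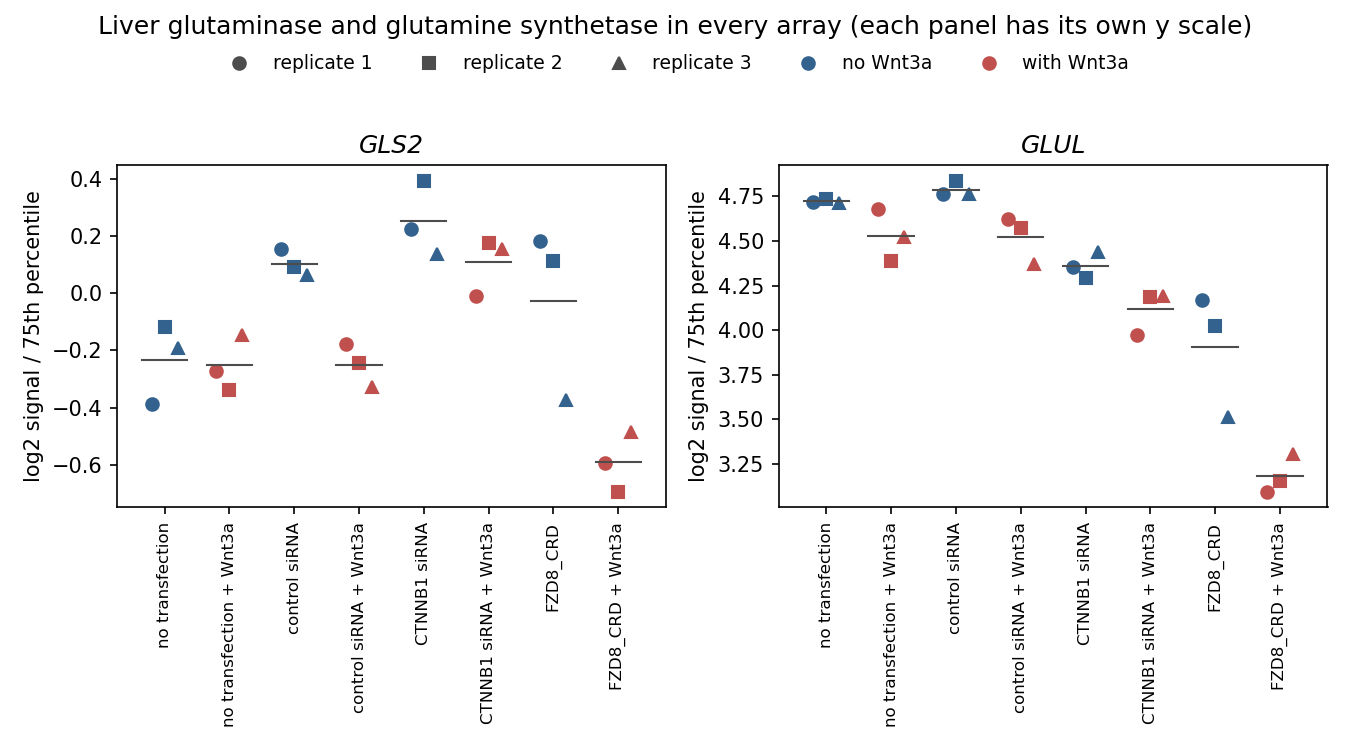
Log2 of the signal over the 75th percentile (vertical axis, own scale in each panel) of GLS2 and GLUL on 24 arrays in 8 conditions; symbols show the replicate and lines the mean of 3 arrays. FZD8_CRD replicate 3 reads -0.37 and 3.51, apart from the other two arrays of its condition.

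ARG2, in contrast to ARG1, was well above background on all 24 arrays. It read -1.90, -1.75 and -1.69 in untransfected cells, -1.12, -1.01 and -1.18 with control siRNA and -1.38, -1.28 and -1.45 with FZD8_CRD, the untransfected arrays being lowest of these with no overlap. It rose with control siRNA (0.68, adjusted p 0.00113; 0.69, adjusted p 0.00529 with Wnt3a) and with FZD8_CRD (0.41, adjusted p 0.0165; 0.48, adjusted p 0.00736 with Wnt3a). Scaling to the spike-in probes shifts all genes alike, and without Wnt3a it put their median at -0.46 with FZD8_CRD (before it -0.08). That shift is about as large as the FZD8_CRD rise of ARG2 without Wnt3a, which thus rests on the scaling. With control siRNA the median was -0.31 (before it -0.03). Without Wnt3a the FZD8_CRD call was lost without untransfected replicate 1 (0.35, adjusted p 0.0731) or FZD8_CRD replicate 2 (0.37, adjusted p 0.0627). The change with Wnt3a on top of FZD8_CRD (0.43, adjusted p 0.0479) was not called without FZD8_CRD replicate 1 (0.43, adjusted p 0.184), 2 (0.48, adjusted p 0.119) or 3 (0.39, adjusted p 0.0718) or replicate 1 (0.41, adjusted p 0.15) or 2 with Wnt3a (0.37, adjusted p 0.189). In untransfected cells Wnt3a gave no call (0.37, adjusted p 0.106), but did with the slide as a term (adjusted p 0.0298) and without replicate 3 with Wnt3a (0.49, adjusted p 0.0231). Scaled to the spike-in probes, the median of all genes was -0.37 there (before it 0.02), a shift about as large as that change. For Wnt3a with control siRNA, ARG2 was again called with the slide as a term and not without it (0.38, adjusted p 0.154, and 0.0444 with the slide as a term; 0.26, 0.44 and 0.44 within slides). ARG2 was not called for Wnt3a with CTNNB1 siRNA (0.45, adjusted p 0.245), nor for CTNNB1 siRNA (-0.04, adjusted p 0.948; 0.03, adjusted p 0.958 with Wnt3a).

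Over the 24 arrays, which share slides and conditions, the genes with the most similar pattern were read by Pearson r, as a description. OTC, well above background on 7 of the 24 arrays, is left out. CPS1 was most like F7 (0.956) and GBP7 (0.950). For ASL they were RDH5 (0.957), TMEM176B (0.947) and ANG (0.945), and for ASS1 SDHD (0.967), MAOA (0.966) and STK39 (0.960). SLC25A13 was nearest MOB4 (0.945), COG8 (0.941) and MINPP1 (0.940), and SLC25A15 nearest PSMD7 (0.878), PHB1 (0.869) and ITGB1BP1 (0.861). GLS2 was nearest RPS6KA5 (0.895), NFYB (0.890) and TBC1D2 (0.885), and NAGS nearest GAST (0.855), MESP2 (0.824) and LINC01119 (0.811). Among the other 7 tested members, CPS1 and ASL (0.827) and the carriers SLC25A13 and SLC25A15 (0.680) were most alike, and NAGS and GLS2 (-0.624) least alike. CPS1 stood far above every other array on untransfected replicate 1 (3.08), and its r values without that array were not read.

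Markers of other cell types were read as a check of the label. Of the biliary or progenitor markers 5 of 6 were well above background on all 24 arrays, EPCAM on 1, with the KRT19 probe brightest on all and sums of 305 to 462 times the 75th percentile. The mesenchymal list summed to 9.97 to 22.7, with the ACTA2 probe brightest, PDGFRB well above background on 7 arrays and THY1 on 0. The endothelial list (PECAM1, CDH5, VWF, KDR; sums 0.772 to 4.24) was well above background throughout, and the leukocyte list summed to 0.976 to 4.01, with CD3E well above background on 16 arrays. The counts that follow stand beside these shares of all genes called. For FZD8_CRD they were 41.9% without and 37.2% with Wnt3a, for control siRNA 22.4 and 8.87%, and for CTNNB1 siRNA 10.5 and 10.6%. For Wnt3a they were 5.42% in untransfected cells, 2.02% with control siRNA and 8.22% with FZD8_CRD. With FZD8_CRD and no Wnt3a, 1 biliary marker was higher and 2 lower of 5 tested, 2 mesenchymal markers were higher and 1 lower of 5, and 1 of 4 endothelial and 1 of 3 leukocyte markers were lower (the higher KRT19 and ACTA2 were at -0.03 and -0.09 when scaled to the spike-in probes), and their part was not tested. Wnt3a went with 3 higher mesenchymal markers in untransfected cells (ACTA2 at -0.08 when scaled to the spike-in probes), 2 with control siRNA and 3 with FZD8_CRD, and CTNNB1 siRNA with 2 lower, or 3 with Wnt3a. Control siRNA went with 1 higher and 1 lower, or 1 lower with Wnt3a, and FZD8_CRD with Wnt3a in both arms with 2 higher and 1 lower. PDGFRB, 1 of the 5 mesenchymal markers tested, was tested only through the control siRNA arrays without Wnt3a. A difference from those arrays was thus built into its being tested, and a call of PDGFRB against them is no support for a difference. The mesenchymal counts above include any such call. Of the endothelial markers 1 was lower for CTNNB1 siRNA without Wnt3a, for FZD8_CRD with Wnt3a in both arms and for Wnt3a with FZD8_CRD, where 1 leukocyte marker was higher. Biliary markers called were 1 higher and 1 lower for Wnt3a in untransfected cells, 1 higher for CTNNB1 siRNA (1 higher and 2 lower with Wnt3a), 1 lower for control siRNA with or without Wnt3a, and 1 higher and 3 lower for FZD8_CRD with Wnt3a.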

How the data were processed

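Scanner files of 24 arrays were read with Python 3.11.15 (pandas 2.3.3, numpy 2.4.6, matplotlib 3.10.9). Per the file headers the values are background-subtracted intensity, and the table deposited by the authors holds normalized log2 values. Intensities were scaled to the 75th percentile of the array and taken to log2 with a floor of -6.13. The filter kept the 31065 probes that stood well above background in every replicate of some condition, and the brightest stood for its gene. One model was fitted in limma 3.58.1 (R 4.3.3) with moderated variances and p adjusted by Benjamini-Hochberg over 24647 genes, called at under 0.05, for 12 comparisons. Of these 24647, 16000 have a symbol, and those without one count among all genes in the shares given. The shares are from the fit to all 24 arrays, and none is given beside counts from fits without some arrays. Alternatives: normexp, quantile and spike-in scaling, the deposited values, other filters, probe means and floors, outlier spots kept, slide as a term, only the conditions compared, no trend, the thresholds of the study, and without each replicate or single array.

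The members and the lists (glutamine and glutamate, arginine and ornithine, other periportal, cycle support, regulators, markers of 5 cell types, Wnt controls) were chosen with earlier results of these data known. From the first 5 lists, genes were named among the up to 4 called per comparison with the largest change if the call held without each single array, the others being counted. GLUL and ARG2 were named whatever their values. Some genes of these lists are not reported here by name.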

Additional observations from a re-analysis of the deposited data

How the results depend on the processing

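The 8 tested members gave 2184 values over the alternatives: 2045 kept the result, 29 became stronger and 3 reversed, and the others became weaker. Of these, 1748 belong to results not called in the first place, where 93 changed sign. Scaling to the spike-in probes reversed SLC25A15 (-0.0927) and SLC25A13 (-0.0398) for FZD8_CRD, no Wnt3a, and SLC25A13 (-0.0329) for control siRNA, no Wnt3a. Members called without arrays ran, lowest to highest: Wnt3a, no transfection 1 (0 to 5); Wnt3a, control siRNA 0 (0 to 0); Wnt3a, CTNNB1 siRNA 0 (0 to 0); Wnt3a, FZD8_CRD 2 (0 to 2); CTNNB1 siRNA, no Wnt3a 0 (0 to 0), with Wnt3a 0 (0 to 0); FZD8_CRD, no Wnt3a 6 (4 to 7), with Wnt3a 4 (3 to 5); control siRNA, no Wnt3a 5 (0 to 6), with Wnt3a 2 (0 to 3); difference in response, CTNNB1 siRNA 0 (0 to 0), FZD8_CRD 0 (0 to 2). OTC is included in these counts and ranges, and its calls against untransfected cells are no support for a difference. Without OTC, 5 of 7 were called for FZD8_CRD, no Wnt3a, and 4 of 7 for control siRNA, no Wnt3a. The share of all genes called without arrays is not given beside the ranges. Replicate block: CTNNB1 siRNA, with Wnt3a 2 called. Arrays with the same replicate number, which share a slide, moved together, though not in every pair. Among 84 pairs of arrays with the same number, deviations from the condition mean had r above 0.1 in 82 and the lowest was -0.056. The mean r was 0.384 for the same number and -0.191 for other numbers, and 24 of 24 arrays were most like those of their own number. The slide was not a term in the main fit. Other counts, OTC included, that moved by over 1.5 times: normexp, Wnt3a, no transfection 0, CTNNB1 siRNA, with Wnt3a 1, control siRNA, with Wnt3a 1; spike-in scaling, Wnt3a, no transfection 0, Wnt3a, FZD8_CRD 0, FZD8_CRD, with Wnt3a 1, control siRNA, no Wnt3a 3, with Wnt3a 0; only the conditions compared, Wnt3a, no transfection 0, Wnt3a, control siRNA 1, Wnt3a, FZD8_CRD 0, CTNNB1 siRNA, no Wnt3a 1, with Wnt3a 1, FZD8_CRD, no Wnt3a 3, control siRNA, no Wnt3a 1, with Wnt3a 0; thresholds of the study, Wnt3a, no transfection 0, FZD8_CRD, with Wnt3a 1, control siRNA, no Wnt3a 3, with Wnt3a 0, difference in response, FZD8_CRD 2; no filter on dim probes, Wnt3a, FZD8_CRD 1, control siRNA, with Wnt3a 1; deposited values, control siRNA, no Wnt3a 3, with Wnt3a 1; no trend, control siRNA, no Wnt3a 3, with Wnt3a 1; quantile normalization, control siRNA, with Wnt3a 1. By 1.5 times or less: FZD8_CRD, no Wnt3a, 4 with spike-in scaling and with the thresholds of the study, 5 with the deposited values and with probes above background on all arrays, 7 with no filter; FZD8_CRD, with Wnt3a, 3 with quantile normalization, 5 with a floor of 1 unit; control siRNA, no Wnt3a, 4 with normexp, quantile normalization, no filter, probes above background on all arrays and a floor of 1 unit.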
